A study of Mus musculus with 36 samples.

Results

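Progenitors of the LK gate from mouse bone marrow were compared between 4 mice with terminal leukaemia and 4 control mice that had no leukaemia, with 1 RNA library per mouse. These 8 libraries are 8 of the 36 in the series, and they were picked by their labels alone: group mixed leukaemia BM LK against group control BM LK. The LK gate holds cells without mature lineage markers that carry c-Kit and lack Sca-1. The labels also call it LK/CLP, with CLP undefined. All 8 mice carried the fusion gene Kmt2a-AFF1, so the controls were not wild type. The leukaemia mice overexpressed a microRNA, named miR-130b in the sample labels and miR-130a in the design text, and the controls expressed a scrambled microRNA (miR-scramble). Strain and ages were not given in the labels. The cells were sorted fresh, and total RNA was made into stranded libraries with a kit for very small inputs, per the labels.

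The 4 leukaemia libraries held 11243907 to 16754870 counts and the 4 control libraries 10922778 to 21575930. Levels are given as CPM, counts scaled to the library total of the genes tested after correction by the trimmed mean of M values (TMM), and fold changes are log2 of leukaemia over control with their standard error (SE). CPM are not divided by gene length, so they compare libraries and not genes. Reads spread evenly along the genome were estimated from 1515 sensory receptor genes, as a share of the counts on genes with an exon length. They would make up 8.15, 8.09, 3.60 and 0.800% in leukaemia libraries 1 to 4, against 6.21, 10.3, 11.9 and 8.89% in control libraries 1 to 4. That share overlapped between the groups (difference of means -4.15 percentage points, two-sided exact permutation p = 0.114, where 0.0286 is the smallest p that 4 against 4 allows). Across the genes tested, Spearman correlations ran from 0.944 to 0.975 between leukaemia libraries, from 0.980 to 0.988 between control libraries and from 0.882 to 0.929 between a leukaemia and a control library.

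The sex of the mice was not given in the labels, and the groups differed in sex-linked RNA. Xist, which is made from the inactive X chromosome, had 47, 94, 6 and 1 counts in the leukaemia libraries, against 16871, 6799, 7075 and 10899 in the control libraries. Ddx3y, a Y-linked gene, had 675, 321, 471 and 480 counts in the leukaemia libraries, against 0, 15, 268 and 2 in the control libraries. Control library 3 therefore held Xist and Y-linked RNA together, and the count of calls and the main gene lists are given with and without it. Genes on chromosomes X and Y were set aside. Sex-linked RNA, mouse cohort, microRNA vector, table and disease changed together between the groups and cannot be told apart.

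KMT2A fusions keep the transcription of a set of developmental regulators switched on, most of all the later HOXA genes and their partner MEIS1, and the LK gate of healthy marrow is the compartment where myeloid and erythroid cells are made. It holds common myeloid progenitors, granulocyte-macrophage progenitors that load primary granules with enzymes such as myeloperoxidase, and megakaryocyte-erythroid progenitors that depend on GATA1, TAL1 and KLF1. MicroRNAs of the miR-130 family pair through their seed, bases 2 to 8 of the mature strand, with matching sites in messenger RNA and lower its stability and translation.

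Both microRNAs that the labels name are printed with a relative, because they share the seed, which is in capitals. The mature sequences are from RefSeq (GRCm38.p6), where mmu-miR-130b-3p lies at chr16:17124071-17124092 on the minus strand, mmu-miR-130a-3p at chr2:84741116-84741137 on the minus strand and mmu-miR-301a-3p at chr11:87113054-87113076 on the plus strand.
mmu-miR-130b-3p: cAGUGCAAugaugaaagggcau
mmu-miR-130a-3p: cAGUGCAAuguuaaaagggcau
mmu-miR-301a-3p: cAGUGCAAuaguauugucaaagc
Counted from the 5′ end, miR-130a differs from miR-130b at 2 of 22 positions, U11A and A13G with the miR-130a base first, and 7 mature mouse microRNAs in the table share this seed. These libraries do not measure the mature microRNA: the precursor genes Mir130a and Mir130b had at most 9 counts in any of the 8 libraries. Which of the 2 was overexpressed could not be read from the files.

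Of 11686 genes tested, 3555 (30.4%) differed between leukaemia and control LK cells at an adjusted p under 0.05 in edgeR's quasi-likelihood test. In leukaemia, 2079 (17.8%) were higher and 1476 (12.6%) lower. Of these, 664 were at least 2-fold higher and 431 at least 2-fold lower, and 40 and 63 passed 8-fold. The 4 leukaemia values did not overlap the 4 control values for 3900 genes (33.4%), called or not. The median log2 fold change over all genes tested was -0.01. Without control library 3 the counts were 1740 higher and 1160 lower. With upper-quartile scaling, which moved the median of all genes to -0.13, the split turned to 1592 higher and 2227 lower, or 41.7% higher among the calls against 58.5% with TMM scaling, so small changes of large families depend on the scaling. With a plain filter of 10 counts in 4 libraries in place of the filter on background, 1740 were higher and 421 lower. That filter kept 31239 genes, and the TMM scaling was computed anew over them. With it the median of ribosomal protein genes moved from -0.09 to 0.25 and that of cell cycle genes from 0.04 to 0.38. The part of scaling in the calls lost with the plain filter was not tested.

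The first principal component held 61.1% of the variance and separated the groups: leukaemia libraries 1 to 4 lay at -13.6, -26.7, -46.3 and -77.8, and the control libraries between 35.4 and 45.5. The order of the leukaemia libraries on it was the order of their background shares given above, from the highest share at -13.6 to the lowest at -77.8. The part of background in that order was not tested. When background was subtracted from each count, 2168 genes were higher and 1629 lower.

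**Figure D1:**
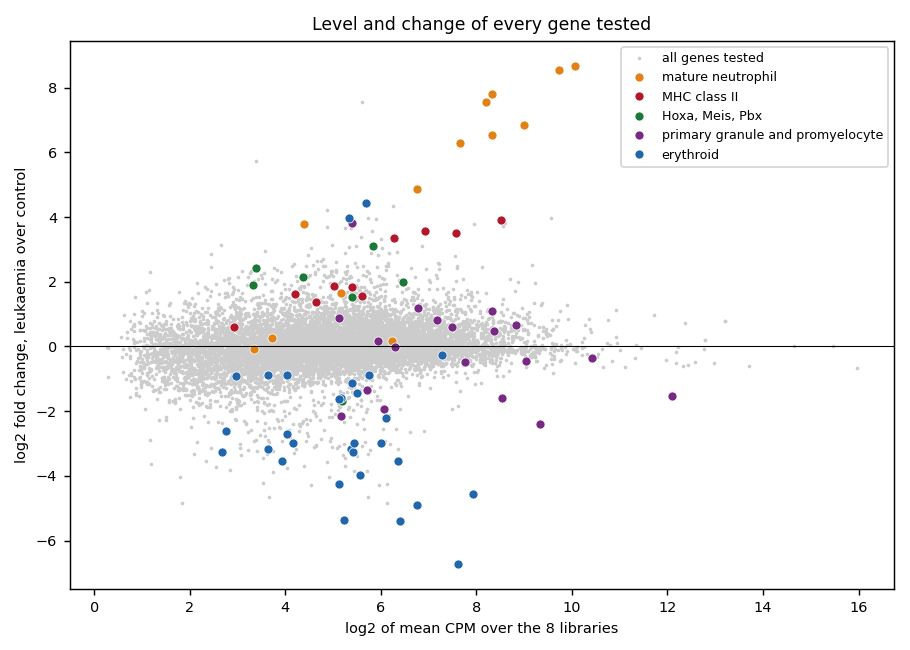
Log2 fold change of leukaemia over control marrow LK cells (vertical) against log2 of the mean CPM over the 8 libraries (horizontal), 1 point per gene tested, with members of 5 gene lists coloured. Mature neutrophil genes reach 8.68 and Car1, an erythroid gene, lies at -6.71, while the median of all genes is -0.01.

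Gene lists of blood lineages, pathways and possible other cells were counted against these background shares. They hold 1032 genes, of which 1021 were matched by symbol and 725 were tested. A member that passed the filter only through the group in which it was high was bound to differ, so counts over tested members describe these libraries. Without control library 3, the erythroid list had 24 members called lower, mature neutrophil 9 and MHC class II 9 called higher, as with it, while dendritic genes had 10 called higher, MHC class I 15, and primary granule genes 6 higher and 8 lower. In bulk RNA, fewer cells of a type and less RNA per cell cannot be told apart.

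**Figure D2:**
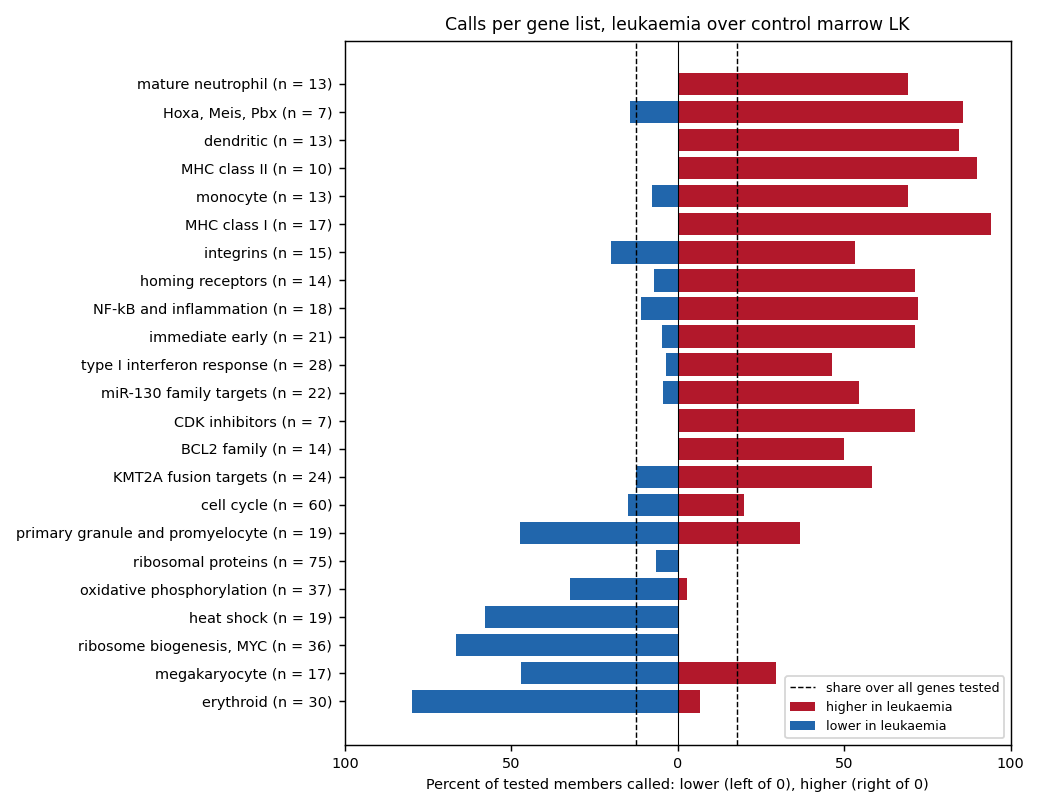
Percent of the tested members of 23 gene lists called lower (blue, left of 0) or higher (red, right of 0) in leukaemia than in control marrow LK cells, with n the members tested. Dashed lines mark the shares over all genes tested, 12.6% lower and 17.8% higher; erythroid genes lie farthest left and MHC class I genes farthest right.

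The markers of the gate were present in both groups. Kit, the receptor that the gate selects, had 253, 228, 237 and 206 CPM in leukaemia libraries, against 351, 338, 307 and 316 CPM in control libraries. All 4 leukaemia values lay below all 4 control values (log2 -0.50 ± 0.09 SE, edgeR adjusted p = 0.0023), a call that was lost with the plain filter of 10 counts (adjusted p = 0.674). Ly6a, which encodes Sca-1, did not pass the filter, with 0.422 to 4.63 CPM in leukaemia and 2.43 to 5.32 CPM in control libraries. Ptprc, the pan-leucocyte CD45 gene, averaged 282 ± 30.8 CPM in leukaemia and 128 ± 6.81 CPM in control libraries (SD, n = 4 each; log2 1.14). Of 11 lineage markers used in the sort, 3 were tested, 2 rose and 1 fell. Cd3e, Cd4, Cd8a, Ms4a1, Ly6g, Klrb1c and Cd5 did not pass the filter. Itgam (CD11b) was 1 of the 2 that rose. Itgam had 13.1, 53.6, 81.9 and 22.7 CPM in leukaemia libraries, against 7.25 to 9.98 CPM in control libraries, so it was highest in leukaemia libraries 2 and 3.

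Receptors used to divide progenitors moved in both directions. Flt3, the FLT3 ligand receptor of lymphoid-primed and dendritic progenitors, had 477, 132, 310 and 390 CPM in leukaemia, against 47.1, 46.1, 59.7 and 34.8 CPM in control libraries. The groups did not overlap (log2 2.80 ± 0.34, adjusted p = 0.000175). Cd48 rose by log2 1.23 and Cd33, a myeloid sialic acid receptor, by 1.97. Eng (CD105), a TGF-beta co-receptor of erythroid and stem cells, fell to 9.37, 6.14, 6.03 and 3.80 CPM in leukaemia, against 72.2, 73.8, 58.7 and 75.3 CPM in control libraries (log2 -3.45 ± 0.22). Itga2b (CD41) fell by 1.36. Cd34 had 173 ± 35.3 CPM in leukaemia and 149 ± 14.4 CPM in control libraries (SD, n = 4 each), overlapped between the groups and was not called (adjusted p = 0.278). Fcgr3 (CD16), high on granulocyte-macrophage progenitors, had 43.4 ± 20.4 CPM in leukaemia and 73.9 ± 7.69 CPM in control libraries and was not called either (adjusted p = 0.0603), although its groups did not overlap.

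The HOXA genes stood at higher levels in leukaemia LK cells, above controls that carry the same fusion. Of 13 genes in the list of HOXA, MEIS and PBX members, 7 passed the filter: 6 rose and 1 fell. Hoxa9 had 152, 128, 112 and 171 CPM in leukaemia libraries, against 35.6, 38.2, 34.2 and 35.5 CPM in control libraries. Hoxa10 had 117, 88.1, 82.6 and 120 CPM in leukaemia libraries, against 10.7, 10.1, 12.8 and 13.4 CPM in control libraries. Neither gene overlapped between the groups, and the spread among the controls was narrow (Hoxa9 log2 1.98 ± 0.13, adjusted p = 8.09e-06; Hoxa10 log2 3.11 ± 0.16, adjusted p = 3.18e-06). Hoxa3, Hoxa5, Hoxa6 and Hoxa7 rose by log2 2.14, 2.44, 1.90 and 1.54. Their partner Meis1 went the other way, with 30.6, 9.50, 14.3 and 13.5 CPM in leukaemia libraries, against 53.2, 56.7, 58.5 and 53.9 CPM in control libraries (log2 -1.70 ± 0.29, adjusted p = 0.00133). Pbx3, Hoxa2, Hoxa4, Hoxa11 and Hoxa13 did not pass the filter, and neither did any of 14 HOXB and HOXC genes.

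Other genes bound by KMT2A fusions in leukaemia mostly rose or stayed uncalled. Of 28 such genes 24 were tested, 14 were higher, 3 lower, and the median log2 fold change was 0.41. With upper-quartile scaling 11 were higher and 3 lower, and with the plain filter of 10 counts 11 were higher and none lower. At 1.5-fold or more 6 were higher and none lower. Mef2c, a transcription factor of lymphoid and monocyte progenitors, averaged 251 ± 69.4 CPM in leukaemia and 88.2 ± 11.8 CPM in control libraries (SD, n = 4 each; log2 1.51 ± 0.18). Runx2, a RUNX factor also used in plasmacytoid dendritic cells, rose by 1.81, and Bcl2, the survival factor, rose by 1.22 with no overlap between the groups. Kmt2a itself had 224, 222, 180 and 215 CPM in leukaemia libraries, against 227, 201, 209 and 223 CPM in control libraries, and Aff1 had 179, 214, 239 and 215 CPM in leukaemia against 203, 182, 177 and 169 CPM in control libraries. Both overlapped between the groups and were not called (adjusted p = 0.831 for Kmt2a and 0.155 for Aff1). Among 21 tested partners of the fusion complex 4 rose and 2 fell with TMM scaling, and 3 rose and 5 fell with upper-quartile scaling. The shares with TMM scaling were 19.0% and 9.52%, against 17.8% and 12.6% of all genes tested. Aff3 rose by 1.16, and Mllt3, a reader of acetylated histones, fell to 14.3 ± 4.00 CPM in leukaemia, against 41.9 ± 8.14 CPM in control libraries (log2 -1.55 ± 0.21).

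The erythroid programme was far lower in leukaemia LK cells. Of 34 erythroid genes 30 were tested, 24 fell and 2 rose, with a median log2 fold change of -2.97. Their summed level was 907, 501, 562 and 475 CPM in the leukaemia libraries, against 2785, 2564, 2432 and 3215 CPM in the control libraries. Car1, a carbonic anhydrase of early erythroid cells, had 9.26, 0.585, 3.67 and 0.422 CPM in leukaemia libraries, against 375, 388, 333 and 466 CPM in control libraries. It fell farther than any other erythroid gene tested (log2 -6.71 ± 0.56, adjusted p = 2.44e-05), and its highest leukaemia value was that of library 1.

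The erythroid regulators fell with their targets. Klf1, the erythroid Krüppel-like factor, had 4.06, 0.585, 1.06 and 0.986 CPM in leukaemia libraries, against 83.0, 65.1, 61.5 and 82.8 CPM in control libraries (log2 -5.37 ± 0.39). Tal1, the SCL factor that pairs with GATA1, had 7.11, 9.21, 3.78 and 2.82 CPM in leukaemia libraries, against 93.4, 90.5, 77.8 and 94.6 CPM in control libraries (log2 -3.96 ± 0.28). Gata1 is on chromosome X and was set aside from the test; it had 5.65, 3.65, 3.31 and 1.13 CPM in leukaemia and 54.2, 57.7, 55.1 and 76.7 CPM in control libraries. In each of the 3 genes every leukaemia value lay far below every control value. Zfpm1, the GATA cofactor FOG1, fell by 2.62, Gfi1b fell by 1.62 and Epor, the erythropoietin receptor, fell by 3.55. The water channel Aqp1 fell by 5.41, the blood group protein Ermap had a log2 fold change of -4.91, and Car2 of -4.56.

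Adult beta-globin went against the list. Hbb-bs had 161, 25.7, 64.2 and 52.5 CPM in leukaemia libraries, against 4.35, 6.60, 4.56 and 4.31 CPM in control libraries, and Hbb-bt had 187, 31.0, 94.4 and 79.5 CPM in leukaemia against 3.43, 6.60, 3.53 and 5.42 CPM in control libraries. Both were highest in leukaemia library 1 and lowest there in library 2, and neither overlapped between the groups (log2 3.97 ± 0.51 for Hbb-bs and 4.43 ± 0.51 for Hbb-bt). Hba-a1 and Hba-a2, the alpha-globin genes, were not called (adjusted p = 0.276 and 0.247). The genes in each globin pair are near-identical, so how their reads were divided is uncertain.

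GATA factors bind the letters GATA, and AGATAA is their common erythroid form. The promoters of Tal1 and Epor are printed because both genes fell by more than 8-fold and each window holds this motif, in capitals in either orientation (TTATCT is its reverse complement). They are from RefSeq (GRCm38.p6), 250 bases before to 50 after the start: Tal1 at chr4:115056176-115056475 on the plus strand and Epor at chr9:21963527-21963826 on the minus strand.
Tal1 promoter: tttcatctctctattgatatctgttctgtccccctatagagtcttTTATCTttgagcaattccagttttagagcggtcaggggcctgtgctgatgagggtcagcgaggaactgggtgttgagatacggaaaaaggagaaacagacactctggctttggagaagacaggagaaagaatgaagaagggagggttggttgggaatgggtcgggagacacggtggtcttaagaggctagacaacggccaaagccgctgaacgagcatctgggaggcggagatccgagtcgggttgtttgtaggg
Epor promoter: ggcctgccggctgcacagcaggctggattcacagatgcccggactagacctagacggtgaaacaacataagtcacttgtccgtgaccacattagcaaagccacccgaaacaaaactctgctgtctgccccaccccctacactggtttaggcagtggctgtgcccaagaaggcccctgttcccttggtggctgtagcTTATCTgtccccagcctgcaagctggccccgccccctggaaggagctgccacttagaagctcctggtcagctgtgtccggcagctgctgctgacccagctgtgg
AGATAA, searched on both strands, occurred in 11.2% of 32851 promoter windows. Of the 7670 tested genes with a window, 7.72% had it in at least 1 window. It occurred in 5 of the 16 erythroid genes called lower that had a window and in 1 of the 6 other erythroid members, and in 2 of 6 megakaryocyte genes called lower. A match is a description of the letters in the window, not of binding.

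Platelet and stem cell genes split. Of 26 megakaryocyte genes 17 were tested, 8 fell and 5 rose, and their summed level overlapped between the groups, with 1051, 823, 975 and 919 CPM in leukaemia and 866, 928, 857 and 858 CPM in control libraries. Pf4, platelet factor 4, fell to 0.565, 0, 0.591 and 0.282 CPM in leukaemia, against 5.72, 8.22, 6.71 and 4.97 CPM in control libraries (log2 -4.04 ± 0.55). F2r, the thrombin receptor, fell by 3.11, and Gp5, a subunit of the von Willebrand factor receptor, fell by 3.36. Plek, the platelet and leucocyte kinase C substrate pleckstrin, rose by 2.59 and averaged 251 ± 53.3 CPM in leukaemia and 41.7 ± 5.23 CPM in control libraries (SD, n = 4 each). Among 10 tested stem cell genes of 22 listed, 6 fell and 4 rose. Hlf, a stem cell transcription factor, fell by 3.34 and Vwf fell by 1.75, while Sult1a1 rose by 2.37.

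The 2 stages of the neutrophil programme moved apart. Primary granule and promyelocyte genes were mixed: of 19 genes, all tested, 9 fell and 7 rose, with a median of -0.02. Mature neutrophil genes rose: of 18 genes 13 were tested, 9 rose and none fell, with a median of 6.30. Their summed level was 918, 11733, 15385 and 2005 CPM in leukaemia libraries 1 to 4, against 151, 191, 172 and 160 CPM in control libraries 1 to 4. Leukaemia libraries 2 and 3 stood far above libraries 1 and 4, and all 4 stood above the controls. Without libraries 2 and 3, 8 of the 13 genes rose, 1 fell, and the median was 3.88. With limma-voom in place of edgeR, 7 of 13 rose.

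Among primary granule enzymes, Mpo, myeloperoxidase, had 1887, 2438, 2678 and 1913 CPM in leukaemia libraries, against 7609, 6913, 5710 and 5750 CPM in control libraries (log2 -1.54 ± 0.18, adjusted p = 0.000115). Elane, neutrophil elastase, had 46.4, 281, 375 and 131 CPM in leukaemia libraries, against 1270, 1283, 885 and 913 CPM in control libraries (log2 -2.38 ± 0.50, adjusted p = 0.00457). Both genes were lower in all 4 leukaemia libraries, and Elane varied more among them. Prtn3, proteinase 3, fell by 1.60, Ms4a3 fell by 1.95 and Ctsg, cathepsin G, fell by 0.45. Other members rose: Plac8 by 0.66, F13a1 by 1.09 and Fcnb, ficolin B, by 3.80, with 7.68, 130, 154 and 20.1 CPM in leukaemia and 4.20 to 6.80 CPM in control libraries. With the plain filter of 10 counts Mpo and Ctsg were not called (adjusted p = 0.0836 and 0.799), and with limma-voom Fcnb was not (adjusted p = 0.16). When 24 marrow libraries shared the estimate of spread, Elane, Prtn3 and F13a1 missed the threshold (adjusted p = 0.0717, 0.0574 and 0.221).

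Among mature neutrophil genes, Ngp, neutrophilic granule protein, had 246, 3128, 4516 and 587 CPM in leukaemia libraries. Control libraries had 3.51, 5.96, 6.02 and 5.42 CPM of Ngp (log2 8.68 ± 0.99, adjusted p = 0.000116). S100a9, a calprotectin subunit, had 164, 2944, 3198 and 424 CPM in leukaemia libraries, against 3.28, 7.09, 3.10 and 5.31 CPM in control libraries (log2 8.55 ± 1.05). Leukaemia libraries 2 and 3 again stood above 1 and 4. Ltf (lactoferrin), Camp (cathelicidin), Lcn2 (lipocalin 2) and S100a8 rose by 6.85, 7.81, 6.30 and 6.54. Csf3r, the G-CSF receptor, Cxcr2, Mmp9 and Pglyrp1 were tested and not called, and Ly6g, Retnlg and Mmp8 did not pass the filter. Without leukaemia libraries 2 and 3, Ngp rose by 6.34 and S100a9 by 6.06. Camp was not called with limma-voom (adjusted p = 0.0656).

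**Figure D3:**
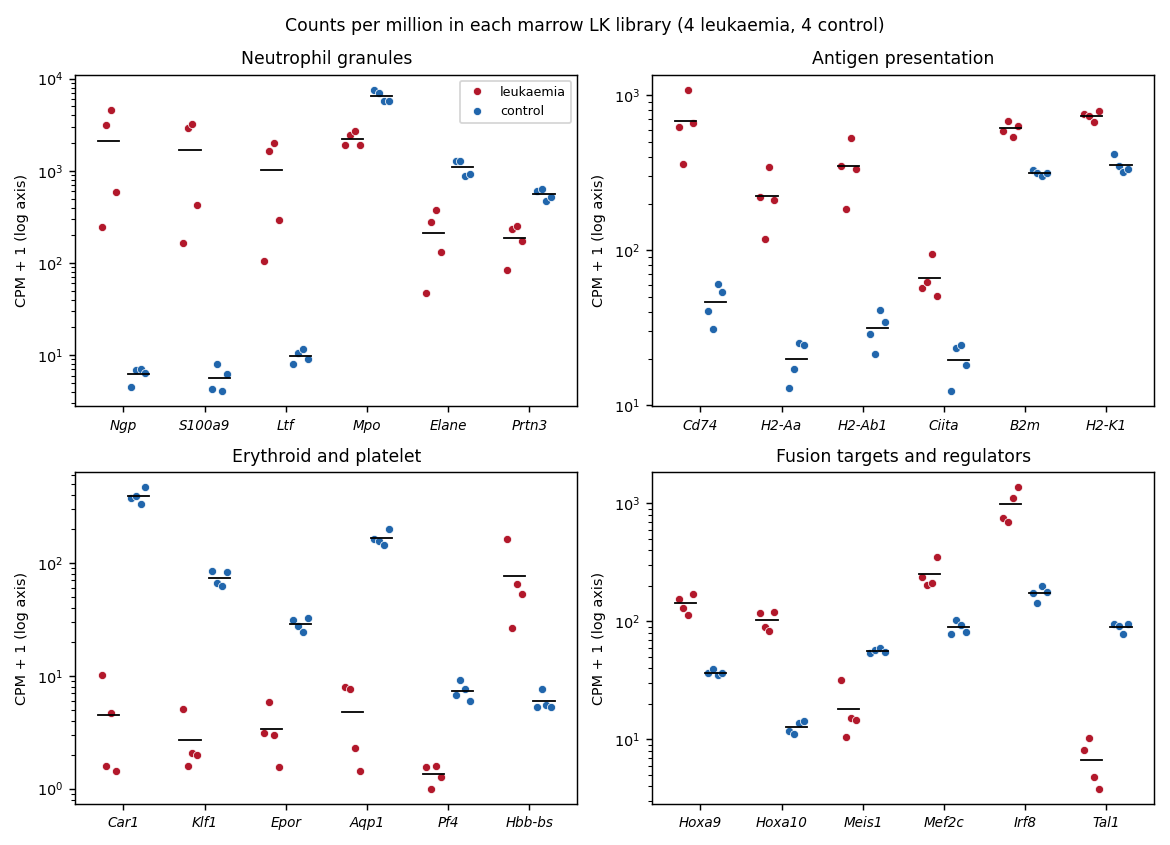
CPM + 1 on a log axis in each of the 4 leukaemia (red) and 4 control (blue) marrow LK libraries for 24 genes, with black bars at the group means. Ngp spans 246 to 4516 CPM in leukaemia against 3.51 to 6.02 CPM in control libraries, while Hoxa9, B2m and H2-K1 separate the groups with little spread.

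**Figure D4:**
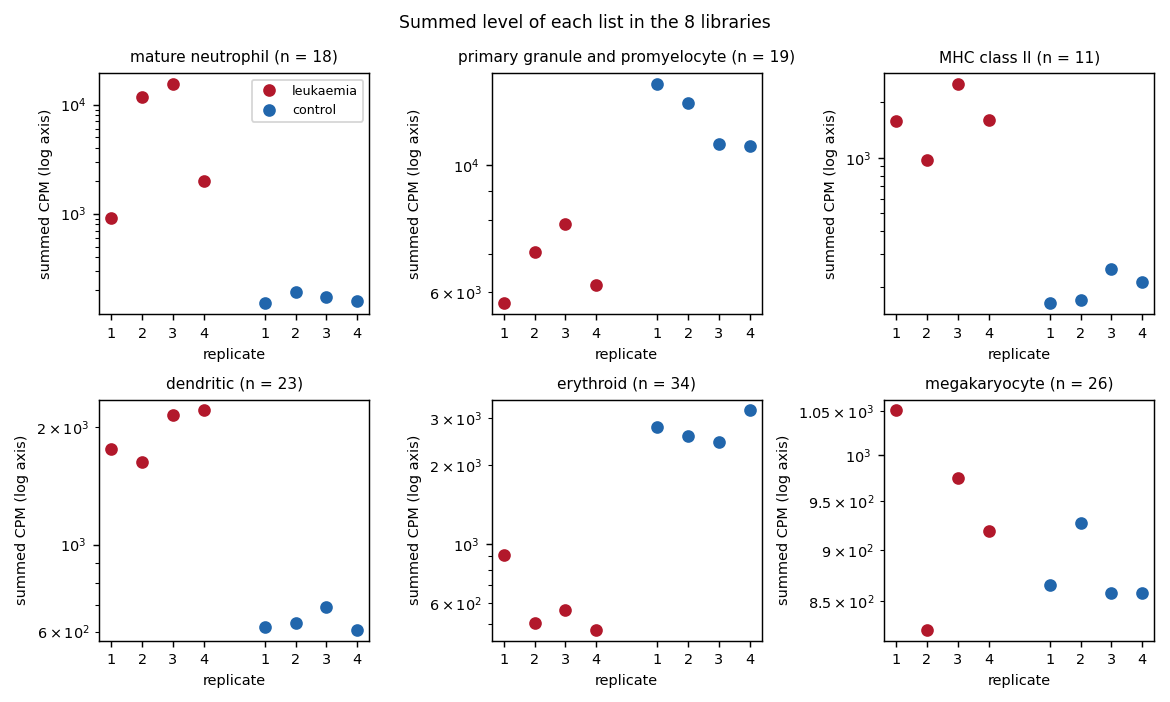
Summed CPM of all members of 6 gene lists in each library (log axis, 1 point per library, leukaemia replicates left of control replicates, n the members summed). The neutrophil sum is highest in leukaemia replicates 2 and 3, the sums of erythroid and MHC class II genes separate the groups, and the megakaryocyte sum overlaps.

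Monocyte and dendritic genes were higher, together with their regulator. Irf8, which directs monocyte and dendritic fate, had 747, 690, 1118 and 1366 CPM in leukaemia libraries, against 174, 143, 198 and 176 CPM in control libraries (log2 2.50 ± 0.22, adjusted p = 2.9e-05). Of 20 monocyte genes 13 were tested, 9 rose and 1 fell. Ly86, a partner of the RP105 receptor, had 117, 145, 130 and 148 CPM in leukaemia libraries, against 26.8, 34.0, 36.6 and 32.2 CPM in control libraries, with little spread in either group. Lyz2, lysozyme, had 144, 1209, 1268 and 290 CPM in leukaemia and 48.2 to 54.9 CPM in control libraries, and was thus highest where the neutrophil genes were. The part of neutrophil RNA in the monocyte count was not tested.

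Of 23 dendritic cell genes 13 were tested, 11 rose and none fell, with a median of 1.95. Their summed level was 1749, 1625, 2142 and 2200 CPM in leukaemia libraries, against 617, 630, 693 and 607 CPM in control libraries. Clec9a, a receptor of conventional dendritic cells and their precursors, had 34.0, 37.6, 52.9 and 65.2 CPM in leukaemia and 4.19, 9.83, 8.43 and 7.29 CPM in control libraries (log2 2.69 ± 0.29). Siglech, a plasmacytoid receptor, had 18.2, 20.8, 23.3 and 55.8 CPM in leukaemia and 3.51, 6.12, 6.02 and 5.64 CPM in control libraries (log2 2.48 ± 0.38). Neither overlapped, and both were highest in leukaemia library 4. Xcr1, Batf3, Ccr7, Spib and Ccr9 did not pass the filter. Id2, an inhibitor of E proteins used by dendritic and lymphoid cells, rose to 93.4, 52.0, 168 and 86.0 CPM in leukaemia, against 4.19, 3.22, 9.81 and 7.74 CPM in control libraries (log2 3.97 ± 0.41).

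MHC class II genes, which present peptides to CD4 T cells, were higher in leukaemia, with a summed level above the controls in all 4 libraries. Of 11 genes 10 were tested and 9 rose, with a median of 1.84, and H2-Oa was not called (adjusted p = 0.129). Cd74, the invariant chain, had 627, 361, 1088 and 663 CPM in leukaemia libraries, against 39.5, 30.1, 59.8 and 52.8 CPM in control libraries (log2 3.90 ± 0.34, adjusted p = 2.67e-05). H2-Aa, an alpha chain, had 221, 118, 345 and 209 CPM in leukaemia libraries, against 11.9, 16.1, 24.2 and 23.3 CPM in control libraries (log2 3.56 ± 0.33). Both were highest in leukaemia library 3 and lowest there in library 2. Ciita, the class II transactivator, averaged 65.5 ± 19.7 CPM in leukaemia and 18.6 ± 5.52 CPM in control libraries (SD, n = 4 each; log2 1.83 ± 0.25). The summed class II level, 974 to 2498 CPM in leukaemia and 163 to 249 CPM in control libraries, moved with the dendritic list, and the part of dendritic cells in it was not tested. The B cell gene Ms4a1 did not pass the filter.

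MHC class I genes, which present peptides to CD8 T cells, rose more evenly. Of 17 genes, all tested, 16 rose and none fell, with a median of 1.11. B2m, the shared light chain, had 585, 681, 538 and 637 CPM in leukaemia libraries, against 329, 313, 301 and 312 CPM in control libraries (log2 0.96 ± 0.10, adjusted p = 6.49e-05). H2-K1, a classical heavy chain, had 756, 731, 669 and 794 CPM in leukaemia and 416, 347, 320 and 332 CPM in control libraries. The groups did not overlap, and in both genes the lowest leukaemia library was 3. Tap1, the peptide transporter, rose by 1.11, Psmb9, an immunoproteasome subunit, by 1.52, and Nlrc5, the class I transactivator, by 0.77. The call of Nlrc5 was lost without leukaemia library 1 or any 1 of the control libraries (adjusted p = 0.0501 to 0.084). H2-Q6 and H2-Q7 rose by 2.41 and 2.48, but class I genes of the Q and T regions are close copies and the division of reads among them is uncertain.

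Interferon-response genes rose in part. Of 39 genes 28 were tested, 13 rose and 1 fell, with a median of 0.71, and the classical members Isg15, Ifit1, Ifit3 and Rsad2 did not pass the filter. Slfn2, a Schlafen gene, had 32.9, 79.7, 84.1 and 29.0 CPM in leukaemia and 4.31 to 9.63 CPM in control libraries (log2 3.13 ± 0.40). Slfn5 had 60.1, 51.9, 68.2 and 30.1 CPM in leukaemia libraries, against 8.08, 11.3, 15.6 and 11.2 CPM in control libraries (log2 2.19 ± 0.27). Ifi204 and Phf11b rose by 2.28 and 2.29, and Irf7 by 1.31. The gene that fell was Isg20 (log2 -1.24), whose call was lost without leukaemia library 3 or 4 or any 1 of the control libraries (adjusted p = 0.058 to 0.12). Without leukaemia libraries 2 and 3, 11 rose and 4 fell. Of 10 tested interferon-induced GTPases of 17 listed, 4 rose.

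The promoters of B2m and Slfn5 are printed because they hold the interferon-stimulated response element, searched as GAAA, any 2 bases and GAAA again, in capitals. Both are from RefSeq (GRCm38.p6): B2m at chr2:122147437-122147736 and Slfn5 at chr11:82951852-82952151, each on the plus strand.
B2m promoter: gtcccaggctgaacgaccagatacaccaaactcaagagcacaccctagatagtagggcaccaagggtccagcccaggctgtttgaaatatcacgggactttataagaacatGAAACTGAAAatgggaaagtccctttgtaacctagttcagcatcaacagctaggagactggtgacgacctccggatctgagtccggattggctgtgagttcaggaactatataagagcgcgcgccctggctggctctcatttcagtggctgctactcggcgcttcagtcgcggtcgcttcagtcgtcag
Slfn5 promoter: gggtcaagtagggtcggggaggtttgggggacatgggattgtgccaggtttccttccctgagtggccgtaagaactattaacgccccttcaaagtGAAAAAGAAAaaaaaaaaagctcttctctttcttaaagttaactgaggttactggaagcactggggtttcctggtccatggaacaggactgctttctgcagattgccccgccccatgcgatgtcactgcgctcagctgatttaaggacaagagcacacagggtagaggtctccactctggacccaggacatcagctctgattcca
On either strand the element occurred in 3.44% of all 32851 windows. Of the 7670 tested genes with a window, 3.74% had it in at least 1 window. It was in 3 of 14 class I genes called higher, in 6 of 10 interferon genes called higher and in 5 of the 11 other tested interferon genes.

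Fate regulators moved in both directions. Of 25 tested factors of 31 listed, 10 rose and 7 fell; the 7 were Klf1, Tal1, Zfpm1, Gfi1b, Gata2, Lmo2 and Tcf3. Gata2, Lmo2 and Tcf3 were not called with the plain filter of 10 counts (adjusted p = 0.214, 0.801 and 0.992), and Tcf3 also lost its call without leukaemia library 1, 2 or 3 or control library 1, 2 or 4 (adjusted p = 0.0518 to 0.118). Spi1, the myeloid factor PU.1, had 121, 112, 199 and 165 CPM in leukaemia libraries, against 81.8, 78.1, 72.8 and 78.8 CPM in control libraries (log2 0.94 ± 0.17). Cebpa, the granulocyte-macrophage factor, had 123 ± 15.7 CPM in leukaemia and 102 ± 15.5 CPM in control libraries (SD, n = 4 each), overlapped between the groups and was not called (adjusted p = 0.146). Of 28 lymphoid priming genes 9 were tested, 4 rose and 2 fell, while none fell without control library 1 or 4 or with the plain filter of 10 counts. Ighm, the immunoglobulin heavy chain gene also transcribed in a sterile form by early progenitors, had 197, 190, 197 and 348 CPM in leukaemia and 51.0, 49.6, 64.5 and 51.6 CPM in control libraries (log2 2.10 ± 0.20). Satb1, a chromatin organiser of lymphoid progenitors, rose by 2.08. Rag1, Rag2, Il7r, Pax5, Ebf1 and Igll1 did not pass the filter.

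Genes of the early response to stimulation and of NF-kappaB rose together. Of 32 immediate early genes 21 were tested, 15 rose and 1, Zfp36l1, fell, with a median of 0.82. The call of Zfp36l1 was lost without leukaemia library 1 or 3 or any 1 of the control libraries (adjusted p = 0.0521 to 0.0722). Zfp36, which destabilises AU-rich messenger RNA, had 31.0, 30.4, 40.7 and 41.5 CPM in leukaemia libraries, against 9.69, 7.57, 8.09 and 7.18 CPM in control libraries (log2 2.13 ± 0.17). Klf6 and Klf2 rose by 2.30 and 2.94. Fos, Egr1, Atf3 and Nr4a1, which respond to dissociation of tissue, did not pass the filter. Of 18 tested inflammatory genes 13 rose and 2 fell: Nfkbia, the NF-kappaB inhibitor, rose by 2.13, Rel by 1.09 and Tlr9, the receptor for unmethylated DNA, by 2.49, while Tnfaip2 fell by 1.52. Nfkbia had 70.8, 47.9, 104 and 46.3 CPM in leukaemia and 12.6 to 19.5 CPM in control libraries, and was highest in leukaemia library 3.

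Growth and stress genes were mostly lower, by small amounts. Of 38 genes of ribosome biogenesis and MYC response 36 were tested, 24 fell and none rose, with a median of -0.48. Srm, spermidine synthase, had 61.1, 41.1, 57.9 and 53.9 CPM in leukaemia libraries, against 135, 119, 96.4 and 115 CPM in control libraries (log2 -1.12 ± 0.14, adjusted p = 0.000207). Cad, which starts pyrimidine synthesis, fell by 1.15 and Npm1, nucleophosmin, fell by 0.82. Myc itself had 327, 196, 264 and 301 CPM in leukaemia libraries, against 311, 311, 257 and 255 CPM in control libraries, overlapped and was not called (adjusted p = 0.804). Of 19 tested heat shock genes 11 fell and none rose, and 7 fell without control library 1 or 4. Hspd1, the mitochondrial chaperonin HSP60, had 205, 137, 174 and 167 CPM in leukaemia libraries, against 378, 364, 353 and 402 CPM in control libraries (log2 -1.13 ± 0.12). With the plain filter of 10 counts, 1 ribosome biogenesis gene and 2 heat shock genes were called lower, and the adjusted p was 0.0755 for Srm, 0.332 for Npm1 and 0.0741 for Hspd1.

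Respiratory and ribosomal protein genes differed little. Of 37 tested oxidative phosphorylation genes 12 fell and 1 rose, with a median of -0.22, and of 75 ribosomal protein genes 5 fell and none rose, with a median of -0.09. Upper-quartile scaling gave 21 and 17 lower, and the plain filter of 10 counts gave none in either list. Without control library 1, 2 or 4, 3 ribosomal protein genes fell. In glycolysis Hk1, hexokinase 1, had 119, 108, 129 and 97.1 CPM in leukaemia libraries, against 320, 289, 262 and 296 CPM in control libraries (log2 -1.36 ± 0.11), and Pfkm fell by 1.60. Over the 30 tested glycolysis and hypoxia genes 4 rose and 3 fell, or 13.3% and 10%, against 17.8% and 12.6% of all genes tested. Asns, asparagine synthetase, had 9.26, 2.34, 9.22 and 5.91 CPM in leukaemia libraries, against 67.9, 52.8, 55.5 and 65.9 CPM in control libraries (log2 -3.15 ± 0.31, adjusted p = 4.6e-05). Ddit4, an inhibitor of mTORC1, had 50.2, 9.35, 76.1 and 29.1 CPM in leukaemia libraries, against 4.96, 4.67, 4.39 and 6.19 CPM in control libraries (log2 3.03 ± 0.52). Each group of values stayed apart from the other, and Ddit4 was lowest in leukaemia library 2. Of 29 tested genes of cholesterol and fatty acid synthesis 4 rose, among them the regulator Srebf2 (log2 0.67), and 5 fell. These are 13.8% and 17.2%, against 17.8% and 12.6% of all genes tested. The falls were 2 without control library 2 or 3, 3 without control library 1 or 4 or leukaemia library 2 or 3, none with the plain filter of 10 counts and 8 with upper-quartile scaling.

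Cell cycle genes did not move as a block. Of 60 genes, all tested, 12 rose and 9 fell with TMM scaling. These are 20% and 15%, against 17.8% and 12.6% of all genes tested. With upper-quartile scaling 10 rose and 17 fell, and with the plain filter of 10 counts 8 rose and none fell. Without control library 4, 9 rose and 4 fell. Ccnd1, cyclin D1, had 74.5, 58.3, 96.4 and 121 CPM in leukaemia libraries, against 12.9, 15.3, 19.9 and 21.2 CPM in control libraries (log2 2.34 ± 0.24). Ccnd3 and E2f2 rose by 1.14 and 1.48, while the origin-licensing gene Orc1 fell by 0.93 and Mcm2 fell by 0.47. Of 7 tested inhibitors of cyclin-dependent kinases and pocket proteins 5 rose: Cdkn2c and Cdkn2d by 1.45 and 1.48, Cdkn1a by 0.76, Rb1 by 0.61 and Rbl2 by 0.64. Without a filter on low values Cdkn1a was not called (adjusted p = 0.0656). Of 17 tested p53 targets 6 rose and 1 fell, and of 14 tested BCL2 and IAP family genes 7 rose and none fell, with both pro-survival Mcl1 (0.81) and pro-death Pmaip1 (1.58) among them.

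Adhesion and homing receptors rose more often than they fell. Of 15 tested integrins 8 rose and 3 fell. Itgb7, which pairs with Itga4, had 193, 125, 281 and 239 CPM in leukaemia libraries, against 25.9, 19.8, 25.1 and 25.6 CPM in control libraries (log2 3.11 ± 0.23, adjusted p = 1.4e-05). Itgb2, the leucocyte beta2 chain, had 147, 293, 381 and 197 CPM in leukaemia libraries, against 44.3, 43.8, 43.0 and 41.8 CPM in control libraries, and was highest in leukaemia libraries 2 and 3. Itga4 and Itgal rose by 1.01 and 1.15, and Itga5, Itga2b and Itgb1 had log2 fold changes of -0.92, -1.36 and -0.34. With the plain filter of 10 counts Itga5 and Itgb1 were not called (adjusted p = 0.144 and 0.997). Of 14 tested homing receptors 10 rose and 1 fell. Ccr1, a chemokine receptor, had 75.9, 41.9, 76.1 and 88.7 CPM in leukaemia libraries, against 4.42, 4.67, 7.14 and 6.19 CPM in control libraries (log2 3.65 ± 0.25). Cxcr4, the receptor that holds progenitors in marrow, rose by 1.30.

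Of 26 tested cytokine receptor and signalling genes 12 rose and 5 fell. Il18r1, an interleukin 18 receptor chain, had 64.0, 41.1, 35.8 and 80.7 CPM in leukaemia and 6.71, 9.34, 11.4 and 15.5 CPM in control libraries (log2 2.37 ± 0.31). Il18rap, the other chain of that receptor, was among the genes with the smallest p, with 112, 107, 112 and 127 CPM in leukaemia and 20.3, 27.2, 23.3 and 18.3 CPM in control libraries. Neither chain overlapped between the groups. Csf2rb, the shared chain of the GM-CSF and interleukin 3 receptors, rose by 1.01, and Il1rl1, the interleukin 33 receptor of mast cells and basophils, fell by 2.78. Of 30 tested chromatin regulators 10 rose and 1, Nsd1, fell, though not with the plain filter of 10 counts (adjusted p = 0.856). The rises were 6 without control library 2 or with the plain filter, 5 when 24 libraries shared the spread and 1 at 1.5-fold or more. Dnmt3a, a DNA methyltransferase, had 202, 159, 175 and 206 CPM in leukaemia libraries, against 116, 105, 114 and 111 CPM in control libraries (log2 0.73 ± 0.10), and Tet2 and Hdac9 rose by 0.79 and 1.19.

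Genes described as targets of the miR-130 family were not lower in leukaemia as a list. Of 32 genes 22 were tested, 12 rose and 1 fell, with a median of 0.67. Of the 22, 6 held no 7-base seed site in the 3′ untranslated region of the transcript used, and 4 of these were among the 12 that rose. The sites of 3 members that hold one are printed from the transcripts of the mouse reference (GENCODE vM21). The match to the seed is in capitals, with 10 bases on each side. Of these 3, Atxn1 fell and the others rose.
Btg1 site: gcaggggaatTTGCACTAttacacttga
Cbfb site: tgccatggttTTGCACTAtaatgcctgc
Atxn1 site: aatgttgtatTTGCACTAgcttttttaa
Btg1, an antiproliferative factor, had 84.2, 79.4, 112 and 103 CPM in leukaemia libraries, against 40.3, 42.0, 41.1 and 40.5 CPM in control libraries (log2 1.21 ± 0.12). Cbfb, the partner of RUNX factors, rose by 0.66. Atxn1 had 35.5, 35.7, 31.6 and 30.6 CPM in leukaemia libraries, against 44.9, 50.9, 50.1 and 42.8 CPM in control libraries (log2 -0.50 ± 0.11), and was not called with the plain filter of 10 counts (adjusted p = 0.639). None of these 3 overlapped between the groups.

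Seed matches were then counted across all messenger RNAs. Among 9317 tested genes with an annotated 3′ untranslated region, the median log2 fold change was 0.04 for 228 genes with the 8-base site TTGCACTA, 0.07 for 855 with only the 7-base site TTGCACT and -0.01 for 8234 with neither. The shares called lower were 11.8%, 11.9% and 14.7%, and the shares called higher 26.8%, 25.8% and 19.9%. Genes with a site had longer untranslated regions, with medians of 2399.5 and 2355 bases against 988 bases without a site. Among genes in the longest of 4 length classes of these regions the shares called higher were 26.4%, 29.6% and 24.8% in the same order of site classes. In shorter regions some medians went the other way. In the second shortest class the median was -0.25 for 40 genes with the 8-base site, against -0.02 for 2170 with neither, and in the shortest class it was -0.36 for 43 genes with only the 7-base site, against -0.06 for 2286 with neither.

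Markers of other cells that a sort could carry were counted as well. Of 15 B and plasma cell genes 4 were tested, 3 rose, Ighm among them, and none fell. Their summed level was 337 to 481 CPM in leukaemia and 151 to 201 CPM in control libraries, so the groups did not overlap, and its part in the results on Ighm and class II genes was not tested. Ms4a1 and Igkc, the kappa light chain gene, did not pass the filter. Of 22 T and NK cell genes 2 were tested and both fell, Gzmb and Nkg7, which myeloid progenitors also transcribe. The call of Gzmb was lost without leukaemia library 3 or control library 3 or 4 (adjusted p = 0.0574 to 0.0742). Of 19 macrophage genes 4 were tested and only Apoe was called, falling to 14.0, 11.8, 8.87 and 8.17 CPM in leukaemia, against 104, 117, 92.0 and 80.2 CPM in control libraries (log2 -3.19 ± 0.19). Of 18 stromal and endothelial genes 4 were tested, and Pecam1 (CD31, also on leucocytes) and Igfbp7 rose. Of 27 mast cell, basophil and eosinophil genes 12 were tested, 4 rose and 6 fell, and Mcpt8, a basophil protease, rose by 2.12. Without leukaemia library 2 or control library 1, 2 of them rose, and with the plain filter of 10 counts 1 fell.

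Outside these lists, the largest changes included genes with tight groups. Ly6k, a GPI-anchored protein, had 21.0, 18.9, 21.0 and 20.6 CPM in leukaemia libraries, against 0.305, 0.161, 0.602 and 0.332 CPM in control libraries (log2 5.73 ± 0.31, adjusted p = 3.18e-06). Ifi205, an interferon-inducible HIN-200 gene with close copies, had 139, 114, 211 and 113 CPM in leukaemia and 4.12, 6.12, 11.0 and 7.18 CPM in control libraries (log2 4.34 ± 0.31). Both separated the groups in every library. Fgd2, a CDC42 exchange factor of antigen-presenting cells, had the smallest p of all genes tested, with 117, 109, 132 and 123 CPM in leukaemia and 19.4, 21.4, 23.4 and 20.7 CPM in control libraries (log2 2.50 ± 0.10, adjusted p = 1.1e-06). Trib2, a pseudokinase, fell to 3.39, 2.48, 2.01 and 0.986 CPM in leukaemia, against 46.2, 44.8, 41.5 and 44.7 CPM in control libraries (log2 -4.29 ± 0.26). Ctse, cathepsin E, fell by 3.09 and Aplp2 fell by 2.65.

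The same contrast exists in the series for the HSC gate (Sca-1 positive, Flt3 negative) and the LMPP gate (Sca-1 and Flt3 positive), with 4 leukaemia and 4 control libraries each, so the disease effect of LK cells could be set against theirs. By their labels, the leukaemia libraries of the LK, HSC and LMPP gates came from different mice, while the same 4 control mice gave every gate. Gate and leukaemia mouse therefore cannot be told apart in these differences. In a fit of 24 marrow libraries with 15196 genes, the effect in LK cells differed from that in HSC cells for 2848 genes (18.7%), of which 617 (4.06%) had the higher effect in LK cells and 2231 (14.7%) the lower. It differed from that in LMPP cells for 5425 genes (35.7%), 2610 (17.2%) higher and 2815 (18.5%) lower. Of the counts on genes with an exon length, the evenly spread reads made up 8.31 to 25.4% in leukaemia and 20.5 to 26.6% in control HSC libraries. They made up 0.341 to 6.09% in leukaemia and 13.4 to 25.7% in control LMPP libraries. These gaps are wider than in LK cells, and their part in the differences between gates was not tested.

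Primary granule genes differed between the gates. Mpo was lower in leukaemia in the LK gate (log2 -1.52 ± 0.50) and higher in the HSC gate (3.94 ± 0.55) and the LMPP gate (3.14 ± 0.53). The difference between the LK and HSC effects was -5.46 ± 0.73 (edgeR adjusted p = 8.63e-05), and that between LK and LMPP -4.66 ± 0.72 (adjusted p = 0.000276). Of the 19 primary granule genes, 14 had a lower effect in LK than in HSC cells and 10 a lower effect than in LMPP cells, none a higher one, and the median effects were 0.01 in LK, 2.60 in HSC and 2.11 in LMPP cells. Cebpa behaved alike, with effects of 0.29 in LK, 3.16 in HSC and 2.15 in LMPP cells (differences -2.87 ± 0.37 and -1.85 ± 0.36). For Ngp the effect was 8.71 in LK, 4.33 in HSC and 4.65 in LMPP cells. Its differences of 4.39 ± 1.73 and 4.06 ± 1.72 did not pass (adjusted p = 0.0797 and 0.0673). Of 16 mature neutrophil genes in this fit, 2 had a higher effect in LK than in HSC cells and 6 than in LMPP cells. None had a lower one, and the median differences were 3.04 and 3.39. The shares of all genes with a higher effect were 4.06% and 17.2%.

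Many erythroid genes had a lower effect in the LK gate. Klf1 had an effect of -5.38 in LK, -0.13 in HSC and -1.85 in LMPP cells, and Car1 of -6.73 in LK and -0.90 in HSC cells. Of 32 erythroid genes in this fit, 18 had a lower effect in LK than in HSC cells and none a higher one (median difference -1.74), and 11 had a lower and 1 a higher effect than in LMPP cells (median difference -0.45). Control LK libraries held 52.1 to 80.7 CPM of Klf1 on the scale shared by all 36 libraries, against 6.31 to 10.4 CPM in control HSC and 3.64 to 6.59 CPM in control LMPP libraries. Over all genes in this fit, 4.06% had a higher effect in LK than in HSC cells and 17.2% than in LMPP cells. Of 9 members of the HOXA list tested in this fit, 2 had a higher effect in LK than in HSC cells and 2 than in LMPP cells. Hoxa3 was one in both comparisons (differences 1.71 ± 0.40 and 1.65 ± 0.41, adjusted p = 0.00502 and 0.00504), with Hoxa4 against HSC cells (1.76 ± 0.60, adjusted p = 0.0424) and Hoxa5 against LMPP cells (1.49 ± 0.57, adjusted p = 0.0454). Hoxa9 and Hoxa10 rose in all 3 gates, by 2.00, 1.80 and 1.29 for Hoxa9 and 3.14, 2.62 and 2.32 for Hoxa10 in LK, HSC and LMPP cells, and neither was called in the tests of the difference (adjusted p from 0.176 to 0.812). Flt3, a gene the other gates are sorted on, had a higher effect in LK than in HSC or LMPP cells (differences 1.98 ± 0.60 and 1.97 ± 0.59). Of 10 class II genes, 4 had a higher effect in LK than in HSC cells and none differed from LMPP cells. Of 75 ribosomal protein genes, 69 had a lower effect in LK than in HSC cells and 71 than in LMPP cells, in the gates with the widest background gaps given above.

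**Figure D5:**
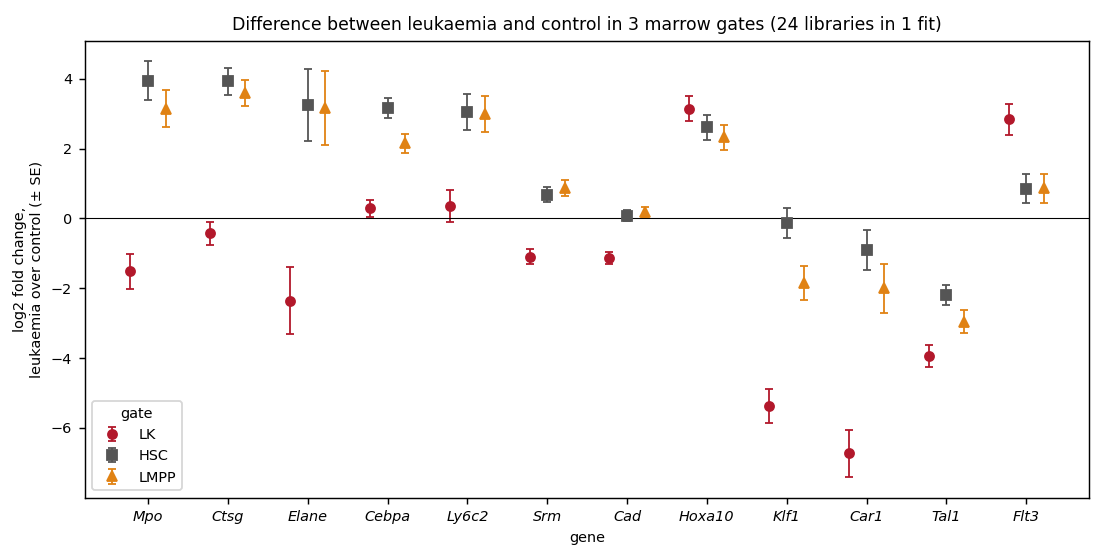
Log2 fold change of leukaemia over control (vertical, ± SE) for 12 genes in the LK (red circles), HSC (grey squares) and LMPP (orange triangles) gates of marrow, from 1 fit of 24 libraries. Mpo lies at -1.52 in LK and at 3.94 and 3.14 in the other gates; Klf1 and Car1 lie lowest in LK.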

How the data were processed

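Sorted LK cells of 8 mice were measured by RNA sequencing. The authors deposited tables of whole-number counts per gene identifier, 1 for leukaemia and 1 for control libraries. The tables are named as normalised, but their whole numbers sum to different totals in each library, so they were treated as counts; a scaling before deposit cannot be told from the files. The submitters' processing notes name DESeq2 and build GRCm39. For the aligner, the counter and its use of strand, nothing was stated in the labels or headers.

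The tables were joined on gene identifier. Of 55414 identifiers, 52133 had a symbol and exon length in GENCODE vM21 (GRCm38), used for names, lengths and chromosomes only. The 3965 on X and Y were set aside. A gene was tested where its count exceeded 3 times the evenly spread background plus 10 in at least 4 of the 8 libraries. Identifiers without an exon length could not enter this test. Those without a symbol held 29.9 to 44.4% of the counts in leukaemia and 25.3 to 37.7% in control LK libraries. For 68 symbols several identifiers exist.

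Groups were compared with edgeR 4.0.16 (R 4.3.3): TMM scaling, the quasi-likelihood test and Benjamini-Hochberg adjustment at 0.05, with SE the log2 fold change over the root of F. Every adjusted p is from this test unless limma 3.58.1 or another setting is named. Effects in the LK, HSC and LMPP gates were compared by interaction terms over 24 libraries. That fit treated libraries of the same control mouse as independent. The code was tested on simulated counts. Replicates were separate mice, 4 in each group, and the control mice each gave an LK, an HSC and an LMPP library. The leukaemia libraries of these gates came from different mice. Replicate numbers did not pair the groups. Counting error and the number of mice both limit precision.

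The members and lists were chosen with earlier results of these data known. Genes named were the 12 largest changes in each direction with at least 20 CPM and no overlap, the 6 smallest p in each direction, up to 4 called members with 10 CPM or more and 2 uncalled members per list, all sort, HOXA and class II genes, and the 5 largest interactions each way. Chosen outside that rule, after their values were seen, were Atxn1, B2m, Cbfb, Csf2rb, Cxcr2, Cxcr4, F13a1, Gata1, Gata2, Gfi1b, Gzmb, H2-K1, Hba-a1, Hba-a2, Hbb-bs, Igfbp7, Irf7, Irf8, Isg20, Itga4, Itga5, Itgal, Itgb1, Lmo2, Ly86, Mcl1, Mcm2, Mmp9, Nlrc5, Npm1, Nsd1, Pf4, Plac8, Prtn3, Psmb9, Rb1, Spi1, Tap1, Tcf3, Zfp36l1 and the members named as not passing the filter. Some genes are not reported here. Alternatives were other scalings, filters and tools, a replicate block, and leaving out libraries.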

Additional observations from a re-analysis of the deposited data

Results flagged for a closer look

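Control library 3 stood apart from the other control libraries in several measures. Its share of counts on identifiers without a symbol was 25.3%, the lowest of the 4, and it held 23.1 CPM of Ddx3y and 58.7 CPM of Eng, where the other control libraries had 72.2 to 75.3 CPM of Eng. It was also the control library farthest from the rest for Ighm (64.5 CPM) and Plek (49.5 CPM).

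Single libraries also lay far from the other 3 of their group for other genes. Among leukaemia libraries these were Ighm in library 4 (348 CPM), Hoxa5 in library 3 (10.8 CPM) and H2-Q7 in library 3 (206 CPM). Among control libraries, library 1 was apart for Siglech (3.51 CPM), Mcl1 (119 CPM) and Nlrc5 (55.5 CPM), library 2 for Itgb7 (19.8 CPM) and Hbb-bs (6.60 CPM), and library 4 for Gfi1b (63.6 CPM) and Csf2rb (66.1 CPM). The gap to the nearest library had to exceed Dixon's critical share of the range of the 4, which chance alone passes in about 1 group in 20.

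The disease effect differed between LK and HSC cells for 2848 genes and between LK and LMPP cells for 5425 genes, by interaction terms in edgeR.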

How the results depend on the processing

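Of 3555 genes called in leukaemia against control LK cells, 2079 were higher and 1476 lower. The lower count was 2227 with upper-quartile scaling, 421 (2161 in all) with the filter of 10 counts in 4 libraries and 416 (2131 in all) with no filter. Requiring more than 1.5-fold left 930 genes, 618 higher and 312 lower. DESeq2 gave 2206 higher and 1727 lower and limma-voom 2030 and 1584. Leaving out 1 library gave 2679 to 3881 calls, 1608 to 2206 higher and 1071 to 1675 lower. Without leukaemia libraries 2 and 3, an alternative chosen after seeing the data, 1924 were higher and 1355 lower. Same-numbered libraries did not deviate together (r from -0.22 to 0.13), and a replicate block gave 1715 higher, 1214 lower and 2929 in all. The genes with a higher effect in LK than in HSC cells numbered 617, 979 with DESeq2, 28 with the filter of 10 counts, and 372 to 702 with 1 library left out, the lowest without control library 1. The genes with a higher or lower effect than in LMPP cells numbered 999 and 6035 with the filter of 10 counts. With the control mouse as a random replicate block in limma-voom, the LK and HSC effects differed for 775 genes upward and 1856 downward, and the LK and LMPP effects for 2148 and 2760. No gene named in the text changed sign while called. Of 153 such genes, 18 lost their call with the filter of 10 counts, 26 at 1.5-fold, 11 when 24 libraries shared the spread, and 1 to 5 with 1 library left out. The cause was not tested. Depth was 10922778 counts or more per LK library, and low genes were limited by background. Some HSC and LMPP libraries in the fit of 24 libraries were shallower. Leukaemia LMPP library 3 held 1.91 M counts and control HSC library 4 held 3.55 M. The part of depth in the differences between gates was not tested.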
